A study of Mus musculus with 6 samples.

Results

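Bdh1, Bdh2 and Acat1, genes of enzymes tied to ketone body formation, were examined in the liver of refed and fasted mice. They were found by their gene symbols in the deposited expression table and were 3 of 10961 genes there, each read from the one of its transcripts that averaged highest. The mice were C57BL/6J males, of an inbred strain, aged 8 weeks, and messenger RNA of frozen tissue was sequenced in 6 libraries. The refed group, libraries 5, 7 and 8, went without food for 12 h from 10 am and then ate a diet with 69% sucrose and 10% fat for 12 h from 10 pm. The fasted group, libraries 1, 3 and 4, went without food for 12 h from 10 pm. All livers were taken at 10 am, so the groups differed in feeding at the same clock hour. The refed mice had thus been fasted as well, earlier and in the daytime.

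Ketone bodies are made in liver mitochondria from the acetyl-CoA of fatty acid oxidation and serve other organs as fuel when carbohydrate is short. Acat1, a mitochondrial thiolase, joins acetyl-CoA units into acetoacetyl-CoA. Bdh1, a mitochondrial dehydrogenase, acts at the end of the pathway, where it reduces acetoacetate to β-hydroxybutyrate. Bdh2 is a cytosolic dehydrogenase that can act on the same substrate but has also been tied to the making of an iron-binding dihydroxybenzoic acid in mammalian cells, and its place in ketone body formation is less settled. Acat1 also works in the use of ketone bodies outside the liver and in the last step of isoleucine breakdown.

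The table gives RPKM, reads scaled by transcript length and library total, so that levels can be set side by side per length. The genes called by the authors carried 26237934 reads in refed 8, the fewest, and 33219013 in refed 7, the most. Full depth is unknown, so the values carry no counting interval. Whether each library stands for its own animal is not spelled out in the labels, so p-values reflect the spread among 6 samples, some of which may be technical. Summed RPKM of 6 hepatocyte markers was 45637 to 48635 in refed and 48019 to 55726 in fasted libraries, with 2 of 6 lower in refed liver. The markers of Kupffer, sinusoidal endothelial, stellate and bile duct cells summed to at most 72.9 RPKM per type in any library. The 6 Kupffer markers summed to 37.4 to 40.4 RPKM in refed and, more widely spread, 24.2 to 72.9 RPKM in fasted liver, with none called. The 6 endothelial markers summed to 37.5 to 44.7 RPKM in refed and 33.2 to 36.4 RPKM in fasted liver, with 1 of them higher in refed. The 6 stellate markers summed to 52.4 to 64.9 RPKM in refed and 37.7 to 70.8 RPKM in fasted liver, with 1 higher in refed. Of the bile duct markers 3 of 5 were higher in refed liver, at a sum of 21.3 to 29.6 RPKM against 17.9 to 27.0 RPKM in fasted liver, and the part of these cell types in the results was not tested. Erythroid markers summed to 89.9 to 100.1 RPKM in refed and 60.9 to 114 RPKM in fasted liver, and 2 of 4 neutrophil markers were found, at up to 3.82 RPKM in sum. No lymphocyte, adipocyte or pancreatic acinar marker looked for was listed. In whole tissue, fewer cells of a type and less RNA per cell cannot be told apart.

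Bdh2 rose and Bdh1 fell in refed liver, and Acat1 fell with a call that was lost without any 1 of 5 libraries. Bdh2 averaged 12.1 ± 0.816 RPKM in refed and 5.61 ± 1.41 RPKM in fasted liver (SD, n = 3 each), a 2.15-fold higher level. Bdh1 averaged 60.3 ± 5.73 RPKM in refed and 94.2 ± 15.3 RPKM in fasted liver, a ratio of 0.64. Acat1 averaged 112 ± 6.77 RPKM in refed and 153 ± 30.4 RPKM in fasted liver, a ratio of 0.734. The 3 genes passed a limma adjusted p of 0.05, where 42.2% of 10904 genes tested did, 26.4% higher and 15.8% lower in refed liver. With each library centred on its median the calls were 49.1% on the higher side, in place of 62.6%, and the members' directions and calls were the same. In none of the 3 did the groups overlap, which was so for 55.4% of the genes tested, 34.7% higher and 20.7% lower in refed liver.

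**Figure D1:**
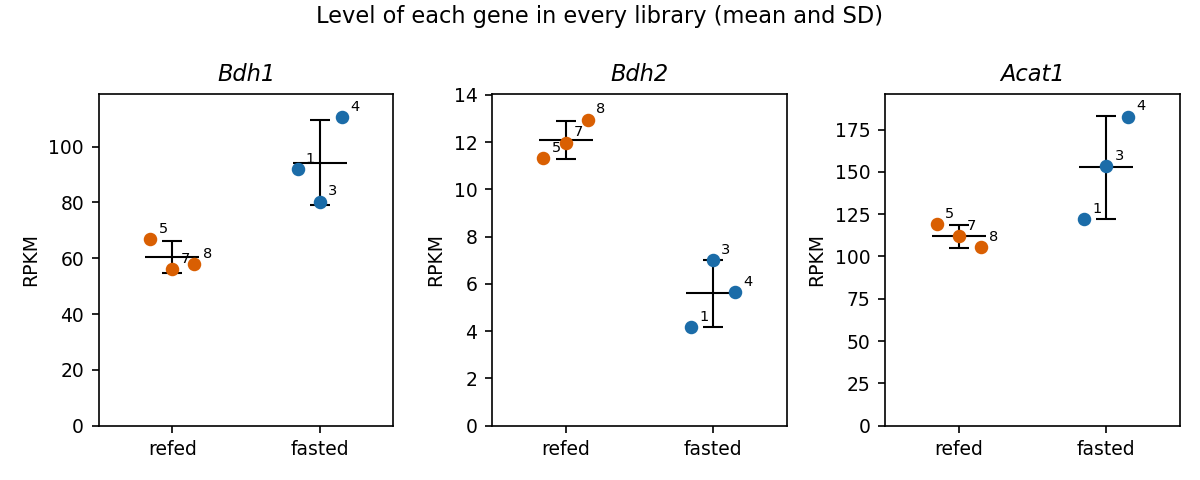
RPKM of Bdh1, Bdh2 and Acat1 (y axes) in the refed and fasted libraries (x axis), with 1 point per library labelled by its number and bars for the mean and SD of 3 libraries. Refed points lie below the fasted ones for Bdh1 and Acat1 and above them for Bdh2, and fasted 1, at 122 RPKM of Acat1, comes within a few RPKM of refed 5 at 119 RPKM.

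The start regions of both dehydrogenase genes are shown because the genes moved in opposite directions. RefSeq's promoter table for GRCm38.p6, a later build than the mm9 named by the submitters, held 2 start sites of Bdh1 and 1 of Bdh2, and Acat1 had no entry. Each stretch below is the 250 bases before a start on the plus strand, 5′ to 3′. Capitals mark the CCAAT box, read on either strand.
Bdh1, first start, chr16:31422047-31422296: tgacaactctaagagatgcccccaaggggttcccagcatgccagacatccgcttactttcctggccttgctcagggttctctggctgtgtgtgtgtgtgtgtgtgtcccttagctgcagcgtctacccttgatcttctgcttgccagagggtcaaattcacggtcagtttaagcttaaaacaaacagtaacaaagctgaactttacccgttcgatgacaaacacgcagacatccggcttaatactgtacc
Bdh1, second start, chr16:31428503-31428752: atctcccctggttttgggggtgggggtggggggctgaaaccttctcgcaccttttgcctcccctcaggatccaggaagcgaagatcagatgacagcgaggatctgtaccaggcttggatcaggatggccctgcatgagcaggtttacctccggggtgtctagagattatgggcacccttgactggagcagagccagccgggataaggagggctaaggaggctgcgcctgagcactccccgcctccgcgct
Bdh2, chr3:135280971-135281220: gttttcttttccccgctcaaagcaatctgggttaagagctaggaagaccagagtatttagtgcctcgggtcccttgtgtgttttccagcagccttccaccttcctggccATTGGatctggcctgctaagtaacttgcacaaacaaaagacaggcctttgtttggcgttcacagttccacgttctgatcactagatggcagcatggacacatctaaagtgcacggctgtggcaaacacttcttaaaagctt

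The Bdh2 stretch held 1 CCAAT box, as ATTGG from 141 to 137 bases before its start, and the Bdh1 stretches held none. That Bdh2 start is the one of NM_001172055, at 135281221 in GENCODE M21. NM_027208, from which the Bdh2 levels were read, starts at 135281261. A CCAAT box was found in 33.8% of 32817 such windows of the table. None of the 3 stretches held AGGTCA, the core motif of many nuclear receptors, which stood in 14% of windows, or that motif repeated on the same strand with 1 base between, known for PPAR-RXR pairs, which stood in 0.0335%. They also held no E-box, CACGTG, which stood in 6.02% of windows, and no cAMP response element, TGACGTCA, which stood in 1.55%. The forkhead motif TGTTTAC, found in 3.16% of windows, and the TATA box TATAAA, found in 12.4%, were likewise missing on both strands. GC content was 49.6% before the first Bdh1 start, 60.8% before the second and 48% before Bdh2, against a median of 52.4%. Letters in these windows say nothing of what binds there.

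Bdh1, the enzyme of the last step, was measured at 66.9, 56.2 and 58.0 RPKM in refed 5, 7 and 8, against 91.9, 80.3 and 111 RPKM in fasted 1, 3 and 4. The highest refed library lay below the lowest fasted one, and the fasted libraries were the more spread, with a highest to lowest ratio of 1.38 against 1.19 in refed. The log2 fold change of refed over fasted was -0.63 ± 0.13 SE (95% interval -0.93 to -0.33, limma adjusted p = 0.0063). Its size was larger than that of 82.9% of the genes tested, and 6.79% of them had a lower fold change. The call held whichever library was left out, at -0.74 to -0.51, with adjusted p of 0.0061 to 0.023.

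The authors' deposited table places Bdh1 on the plus strand of chromosome 16, from 31422366 to 31458987, in mm9 as named by the submitters, a span of exons and introns. It lists 12607, 11863 and 10140 reads in refed 5, 7 and 8, against 16763, 14970 and 19665 in fasted 1, 3 and 4. The log2 fold change in the authors' deposited table is -0.77 with a false discovery rate of 7.6e-08. A long non-coding gene, Gm15743, lies on the other strand over part of Bdh1 in GENCODE M21, and since it is not known here whether reads were assigned by strand, its reads cannot be told from those of Bdh1. It was in neither deposited table as given here.

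Bdh1 has 2 RefSeq transcripts in the table, which correspond to the start sites shown above. The level of NM_001122683, from the second start, was 0.879 to 0.885 times that of NM_175177, from the first, in all 6 libraries. Both gave a log2 fold change of -0.63 ± 0.13 when each transcript was fitted (limma adjusted p = 0.0055 for NM_175177 and 0.0057 for NM_001122683, over 14594 transcripts). With the ratio this even, the table did not separate the starts.

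Bdh2, the cytosolic enzyme, was measured at 11.3, 12.0 and 12.9 RPKM in refed 5, 7 and 8, against 4.17, 7.0 and 5.66 RPKM in fasted 1, 3 and 4. Every refed library lay well above every fasted one, and the refed libraries were close together, with a highest to lowest ratio of 1.14 against 1.68 in fasted. The log2 fold change was 1.01 ± 0.15 SE (95% interval 0.65 to 1.36, limma adjusted p = 0.0016). On the scale with 1 RPKM added, a gene this low is understated, and with 0.1 added it was 1.12 (adjusted p = 0.0019). The size was larger than that of 93.4% of the genes tested.

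The lowest Bdh2 value was that of fasted 1, a library with 808 RPKM of Lcn2, against 6.18 and 5.90 RPKM in fasted 3 and 4. Lcn2, an acute phase protein gene whose product binds iron-carrying molecules, is named here after its values were seen. Without fasted 1 the Bdh2 rise was 0.84 ± 0.11 (limma adjusted p = 0.0019), and the call held without any other library as well, up to 1.16 without fasted 3. The authors' deposited table places Bdh2 on the plus strand of chromosome 3, from 134944185 to 134967390, and no other gene overlaps it in GENCODE M21. It lists 816, 981 and 828 reads in refed 5, 7 and 8, against 313, 502 and 387 in fasted 1, 3 and 4. The authors' deposited table has a log2 fold change of 0.92 with a false discovery rate of 8.4e-06. A second transcript, NM_001172055, was listed at 0.958 to 0.981 times the level of NM_027208 and gave 0.99 ± 0.15 on the log2 scale (adjusted p = 0.0014), so the starts could not be separated here either.

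Acat1, the thiolase of the first step, was measured at 119, 112 and 105 RPKM in refed 5, 7 and 8, against 122, 153 and 183 RPKM in fasted 1, 3 and 4. The refed libraries were close together, with a highest to lowest ratio of 1.13, while the fasted ones ran over a ratio of 1.5. Fasted 1 lay near the refed values. It is the library with 808 RPKM of Lcn2 named above, and a link of this to Acat1 was not tested. The log2 fold change was -0.43 ± 0.14 SE (95% interval -0.76 to -0.09, limma adjusted p = 0.045), larger in size than that of 69.6% of the genes tested.

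The Acat1 call was lost when any library but fasted 1 was left out. The limma adjusted p was 0.11 without fasted 3, 0.1 without fasted 4, 0.077 without refed 5, 0.094 without refed 7 and 0.12 without refed 8. The fold change was -0.29 ± 0.12 without fasted 4, the highest library, and -0.58 ± 0.11 without fasted 1 (adjusted p = 0.0072). It was negative in all 6 cases. The authors' deposited table places Acat1 on the minus strand of chromosome 9, from 53388627 to 53418487, and no other gene overlaps it in GENCODE M21. It lists 23786, 24967 and 19493 reads in refed 5, 7 and 8, against 23843, 31166 and 34750 in fasted 1, 3 and 4. These reads, before any scaling by library, overlap between the groups at fasted 1. In the authors' deposited table the log2 fold change is -0.60 with a false discovery rate of 0.0002. A single transcript, NM_144784, is listed for Acat1.

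**Figure D2:**
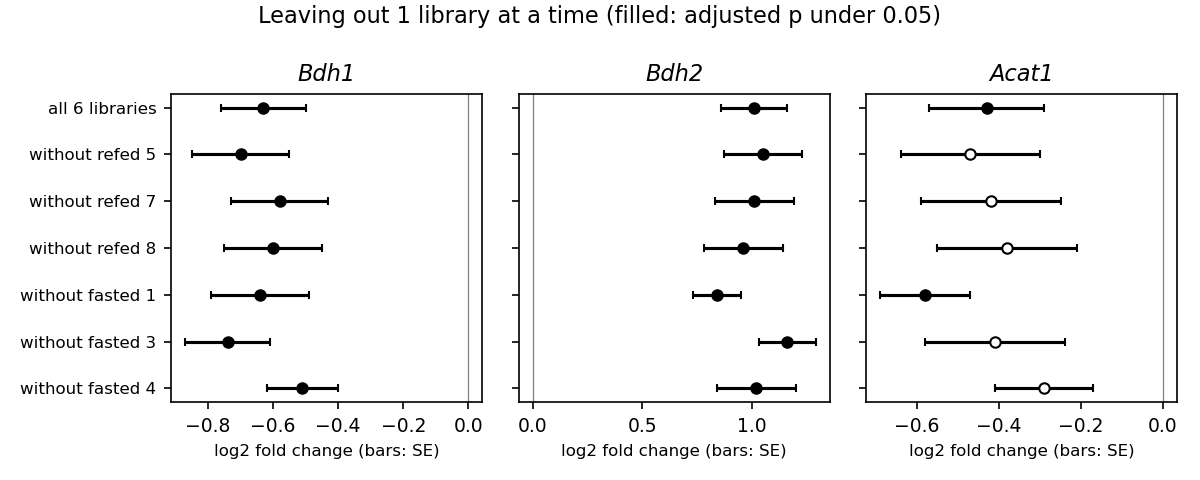
Log2 fold change of refed over fasted (x axes, bars for the SE) of Bdh1, Bdh2 and Acat1, fitted with all 6 libraries and with 1 library left out (y axis). Filled points passed an adjusted p of 0.05, and Acat1 has filled points with all libraries and without fasted 1.

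In every library Acat1 was the highest of the 3 members and Bdh2 the lowest. Over all genes tested, Acat1 ranked 487 and Bdh1 803 by mean RPKM, and 57.2% of genes were at a lower level than Bdh2. The 2 dehydrogenases drew closer in refed liver, where Bdh1 stood at 5.91, 4.69 and 4.48 times the RPKM of Bdh2 in refed 5, 7 and 8, against 22.0, 11.5 and 19.5 times in fasted 1, 3 and 4. Such a linear ratio within a library does not depend on how libraries were scaled. The log2 ratios below add 1 RPKM to each gene, so they depend on it to a degree.

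The log2 ratio of Bdh1 to Bdh2, with 1 RPKM added to each, averaged 2.23 ± 0.21 in refed and 3.86 ± 0.45 in fasted liver (SD, n = 3 each), a difference of -1.63. An exact two-sided permutation test gave p = 0.1, the smallest that 3 against 3 libraries allow (adjusted p = 0.15 over 3 ratios). The log2 ratio of Bdh2 to Acat1 averaged -3.11 ± 0.18 in refed and -4.54 ± 0.26 in fasted liver, a difference of 1.43 with no overlap (exact p = 0.1, adjusted p = 0.15). The log2 ratio of Bdh1 to Acat1 averaged -0.88 ± 0.08 in refed and -0.68 ± 0.26 in fasted liver, and the groups overlapped (exact p = 0.3, adjusted p = 0.3). The Bdh1 to Acat1 difference of -0.20 ran from -0.32 to -0.06 as each library was left out, which does not show that both genes changed alike.

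**Figure D3:**
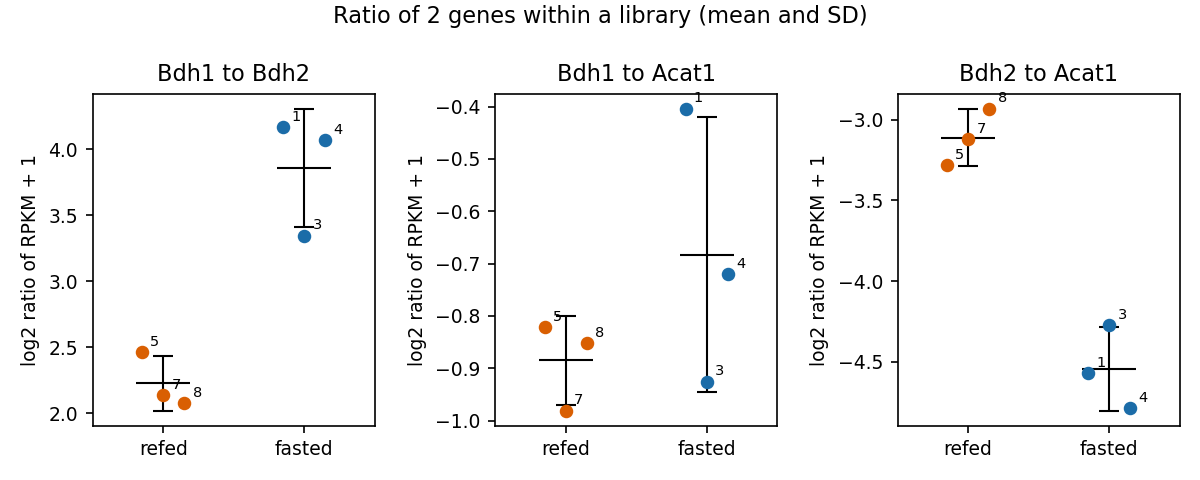
Log2 ratio of RPKM + 1 of 2 genes within a library (y axes) in refed and fasted libraries (x axis), with 1 point per library labelled by its number and bars for the mean and SD of 3 libraries. The groups stand apart in both ratios with Bdh2 and overlap in the ratio of Bdh1 to Acat1; the y axes do not start at 0.

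**Figure D4:**
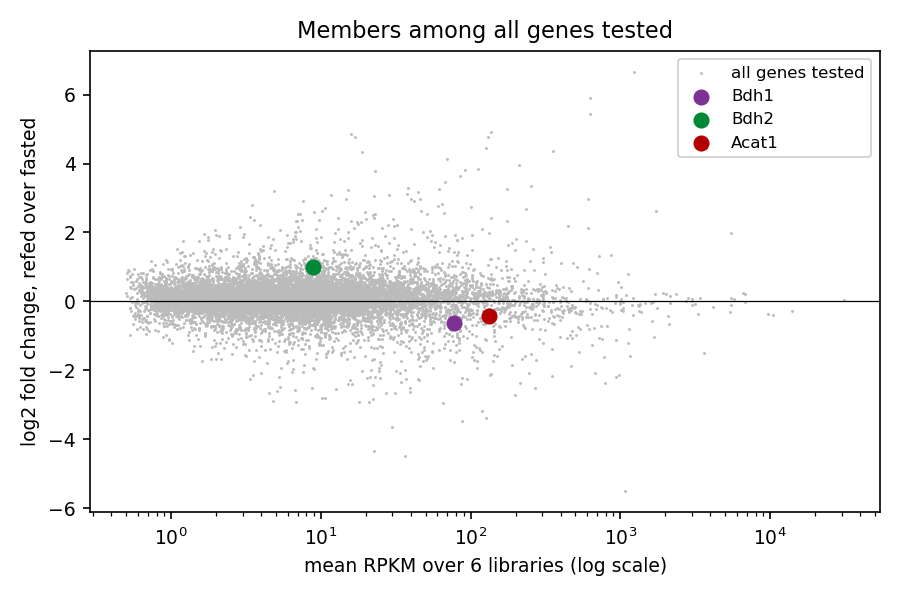
Log2 fold change of refed over fasted (y axis) against mean RPKM over 6 libraries (x axis, log scale) for the 10904 genes tested, in grey, with the 3 members in colour. Bdh2 lies at 1.01 among genes of middle level, and Bdh1 at -0.63 and Acat1 at -0.43 lie among the higher ones.

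Profiles nearest to each member were sought among the 6424 genes that averaged 5 RPKM or more, by the root mean square difference of log2 values centred on each gene's mean over the 6 libraries. Near to Acat1 were the non-coding Epb41l4aos at 0.058, and Vnn3, Nfib and Pcbp2 at 0.080 to 0.086. Nearest to Bdh1 were Tmed4 at 0.049, Tspan31 at 0.058, Mcm10 at 0.078, and Cebpd and Zfp750 at 0.083 each. Nearest to Bdh2 were 1190002N15Rik at 0.088, the chaperone gene Hsp90ab1 at 0.091, the repressor gene Nfil3 at 0.095, and the glutathione transferase gene Gsta3 and Lrrc28 at 0.1 each. These are likenesses over 6 libraries of 2 groups and carry no test.

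Genes of ketone body use and transport went both ways, with 2 higher and 1 lower of 5 measured. Over all genes tested 26.4% were higher and 15.8% lower. Aacs, which returns acetoacetate to cytosolic lipid synthesis, averaged 133 ± 16.7 RPKM in refed and 6.75 ± 1.45 RPKM in fasted liver (SD, n = 3 each), a log2 fold change of 4.12 ± 0.15 (limma adjusted p = 3.1e-06). Slc16a6, known in zebrafish as an exporter of β-hydroxybutyrate from liver, rose by 1.52 ± 0.09 (adjusted p = 2.3e-05). Its means were low, 6.27 RPKM in refed and 1.53 RPKM in fasted liver, so adding 1 RPKM understates the rise. The alternatives with all libraries gave up to 1.97, and the authors' deposited table has 1.91. Slc16a7, another monocarboxylate transporter gene, was lower at -0.75 ± 0.19 (adjusted p = 0.016), and lost its call without fasted 3, fasted 4, refed 7 or refed 8, at 0.05 to 0.057. The transporter gene Slc16a1 was at 0.17 ± 0.16 and that of its partner Bsg at -0.10 ± 0.10, and neither passed. The median log2 fold change of the 5 was 0.17, against 0.10 over all genes tested. Oxct1, the enzyme that lets other tissues burn ketone bodies, is known to be near absent from hepatocytes and was not in the table as given here.

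Among the other 7 thiolases, relatives of Acat1 by reaction, 3 were lower, 1 was higher and 3 did not pass. The shares over all genes tested were 15.8% lower and 26.4% higher. The cytosolic Acat2, which opens sterol synthesis with the same reaction as Acat1, averaged 52.1 ± 15.4 RPKM in refed and 8.93 ± 1.53 RPKM in fasted liver (SD, n = 3 each; log2 fold change 2.39 ± 0.21, limma adjusted p = 0.00013). Acat1 and Acat2 thus changed in opposite directions, although the Acat1 call was lost when any library but fasted 1 was left out. The lower ones were Hadhb of the trifunctional protein, at -0.72 ± 0.10, and the peroxisomal Acaa1a and Acaa1b, at -0.95 ± 0.12 and -1.07 ± 0.20, which are close copies and uncertain singly. Acaa2, Scp2 and Acat3, a close copy of Acat2, did not pass, and Acat3 did without refed 7, at 0.33 (adjusted p = 0.036). The authors called Acaa2 lower, at -0.32 (DESeq false discovery rate 0.025). The median of the 7 was -0.16.

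Of 8 measured relatives of Bdh1 in its branch of the short-chain dehydrogenase family, 3 were higher, 3 lower and 2 did not pass. Most of these relatives act on retinoids or steroids. Over all genes tested the shares were 26.4% higher and 15.8% lower. Hsd17b6, Rdh9 and Rdh16 were lower at -1.63 ± 0.24, -1.49 ± 0.14 and -0.72 ± 0.14. Dhrs9, Sdr9c7 and Hsd17b2 were higher at 0.95 ± 0.23, 0.85 ± 0.26 and 0.71 ± 0.14. Dhrs9 was at a low level, 1.33 ± 0.818 RPKM in refed and 0.162 ± 0.0155 RPKM in fasted liver (SD, n = 3 each), an 8.22-fold ratio. Its log2 fold change depended on the RPKM added, at 0.95 with 1 and 2.29 with 0.1. The authors' deposited table lists 575, 629 and 666 Dhrs9 reads in refed 5, 7 and 8, against 271, 173 and 157 in fasted 1, 3 and 4. The log2 fold change there is 1.44, so the size of the Dhrs9 rise is uncertain. Sdr9c7 lost its call without refed 7 or refed 8, and its log2 fold change was 0.54 to 1.02 with 1 library left out, the lowest without fasted 1 (adjusted p = 0.049). Rdh5 and Rdh7 were at 0.03 ± 0.11 and -0.28 ± 0.10, and Rdh7 passed with libraries centred on their median, at -0.37, and without fasted 1, at -0.36. The authors called Rdh7 lower, at -0.42 (DESeq false discovery rate 0.00097). They also called Rdh1, a relative without RPKM here, lower at -0.99 (DESeq false discovery rate 0.028), from 36 to 96 reads per library. The Rdh genes include close copies, so single values are uncertain. The median of the 8 was -0.12. Bdh1, at -0.63, lay within their range of -1.63 to 0.95, which is too wide to show a likeness.

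**Figure D5:**
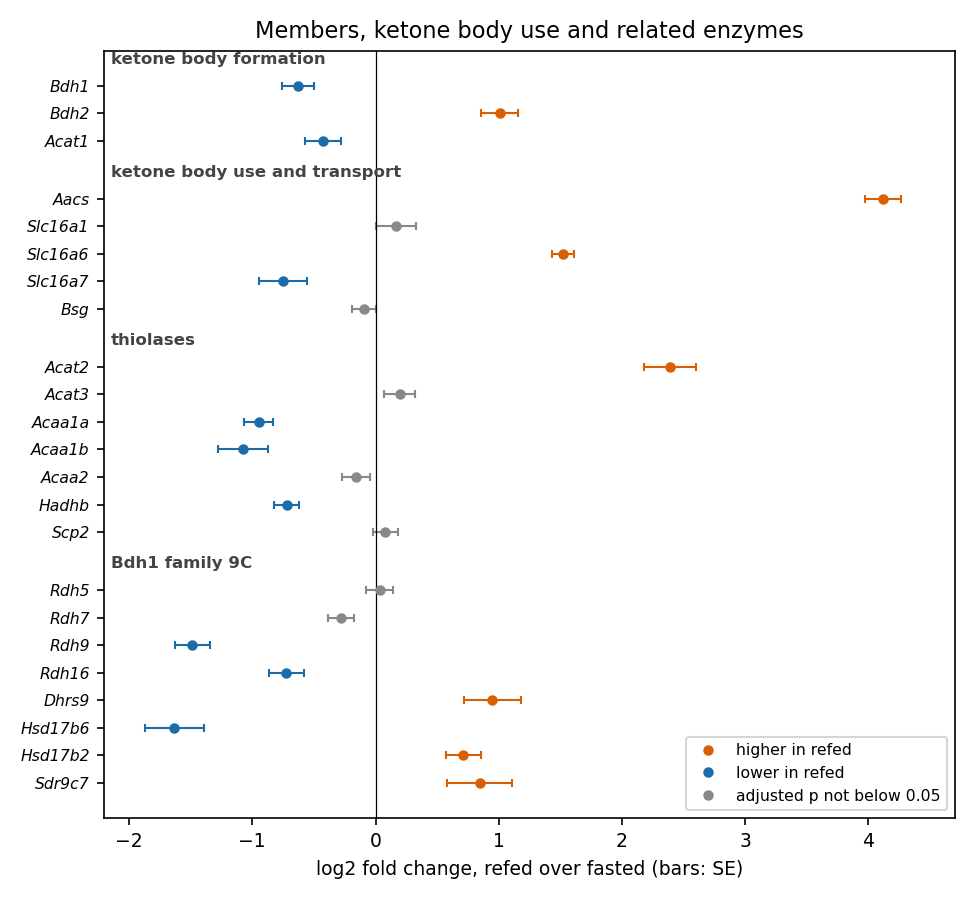
Log2 fold change of refed over fasted (x axis, bars for the SE) for the 3 members, genes of ketone body use and transport, thiolases and the branch of the short-chain dehydrogenase family that holds Bdh1 (y axis), coloured by whether a gene was higher, lower or not past an adjusted p of 0.05. Bdh2 is the member on the right of 0, and Aacs, at 4.12, lies farthest from 0 among the genes drawn.

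Genes that feed the pathway were mostly lower, where 15.8% of all genes tested were lower and 26.4% higher. Of 21 genes of fatty acid entry and β-oxidation, 16 were lower and none higher, with a median log2 fold change of -0.68, close to the -0.63 of Bdh1. The largest changes were those of Cpt1a, at 21.6 ± 6.40 RPKM in refed and 231 ± 16.5 RPKM in fasted liver (SD, n = 3 each), and of Crat and Eci2, at -2.18 ± 0.20 and -2.10 ± 0.17 on the log2 scale. Acadvl, at -0.27 ± 0.11, and Etfa, at 0.03 ± 0.10, did not pass, and Acadvl did with libraries centred on their median, at -0.36. The authors called Acadvl lower, at -0.39 (DESeq false discovery rate 0.0031). Of 16 regulators 7 fell, 3 rose and 6 did not pass. The count that fell was 6 to 11 under the alternatives with all libraries, with 11 under quantile normalization. The regulators include both drivers and brakes of ketogenesis, so these counts give no direction for the pathway. Acaca and Acacb, whose product malonyl-CoA holds back fatty acid entry, rose by 3.77 ± 0.23 and 2.96 ± 0.19, and Ppara, the nuclear receptor known to drive ketogenic genes in fasting, fell by 2.07 on the log2 scale. Gcgr, the glucagon receptor gene, was at -0.07 ± 0.09 and Hdac3 at -0.13 ± 0.08, and neither passed.

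Acat1 also belongs to isoleucine breakdown. Of 20 genes of branched-chain amino acid breakdown, 9 were lower, none higher and 11 did not pass, with a median of -0.26. Among all genes tested 15.8% were lower and 26.4% higher. The 20 genes include steps of leucine and valine breakdown, which are not on the route of Acat1. With quantile normalization 14 were lower. Ppm1k, the phosphatase that activates the branched-chain keto acid dehydrogenase, was at 1.84 ± 0.271 RPKM in refed and 18.6 ± 1.23 RPKM in fasted liver (SD, n = 3 each; log2 fold change -2.80 ± 0.10, limma adjusted p = 3.1e-06). Bcat2 and Ivd were lower at -1.28 ± 0.08 and -0.76 ± 0.10. Hibadh and Pccb, at 0.01 ± 0.10 and -0.21 ± 0.08, did not pass, and Pccb did with median centring or quantile normalization. The authors called Pccb lower, at -0.33 (DESeq false discovery rate 0.0043). Acat1, at -0.43, lay between the median of the fatty acid genes and that of the branched-chain genes, and the latter is not a median of its isoleucine route.

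Bdh2 has been tied to iron, and of 17 iron-handling genes 4 rose, 5 fell and 8 did not pass, with a median of 0.18. Over all genes tested 42.2% passed, 26.4% higher and 15.8% lower, so the iron counts alone do not show a change in iron handling. Tfrc, the transferrin receptor gene, was at 8.35 ± 2.23 RPKM in refed and 3.93 ± 0.820 RPKM in fasted liver (SD, n = 3 each; log2 fold change 0.91 ± 0.19, limma adjusted p = 0.0062), and the reductase gene Steap4 rose by 0.96 ± 0.23. Hamp, the gene of the iron hormone hepcidin, had overlapping groups and passed as lower at -1.67 ± 0.57 (adjusted p = 0.045). The call was lost without fasted 1, 3 or 4 or refed 5 or 7. Hamp was not found by its symbol among the genes called by the authors. Its log2 fold change was -2.29 to -1.04 with 1 library left out, smallest in size without refed 7. The lower count of 5 was 2 without refed 7 and 3 without any other single library. The transferrin gene Trf and the ferritin gene Fth1, at 0.25 ± 0.15 and 0.24 ± 0.10, did not pass. Trf passed without fasted 1, at 0.40, and Fth1 with quantile normalization, at 0.30, and with a variance prior without a trend.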

How the data were processed

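Messenger RNA libraries were made from total RNA of frozen liver, per the labels' protocols, and groups and replicate numbers were taken from the sample titles, 3 libraries per group. The submitters' processing notes name FastQC, STAR 2.6.0c, DESeq2 and the build mm9, without saying what each was used for. The main table holds RPKM values on a linear scale, deposited by the authors, for 14659 RefSeq transcripts, each reaching at least 1 RPKM in some library. The library total behind the scaling is not stated in the sources at hand. The other table holds, for 5434 rows called by the authors, the deposited raw read counts of each library, with p-values, false discovery rates and log2 fold changes (refed over fasted) from DESeq, per the file headers. Those counts were selected on the outcome, so no count test was run on them, although the design had named one for a full table of counts. Symbols were read without regard to case, and the transcript with the highest mean stood for a gene. Of 10961 genes, the 10904 that averaged 0.5 RPKM or more were tested on log2(RPKM + 1), two-sided, by limma 3.58.1 (R 4.3.3) using a trended variance prior, and Benjamini-Hochberg adjustment at 0.05. Ratios between members were compared by exact permutation in scipy 1.17.1. The members and gene lists were chosen with earlier results of these data known. Of a list with up to 12 genes measured all were named, otherwise the 3 largest changes that passed and the 2 highest genes that did not. Some genes that this rule names are not reported here. Alternatives were another pseudocount, filters, scalings, transcript choices, a variance prior without a trend, and leaving out each library. For gene list counts and genes beside the members these were chosen after seeing the data.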

Additional observations from a re-analysis of the deposited data

How the results depend on the processing

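Bdh1 and Bdh2 kept their direction and call under the 14 alternatives tried for each, at -0.74 to -0.51 and 0.84 to 1.16 on the log2 scale. Acat1 kept its direction under all 14 and lost its call in 5, each with 1 library left out, over a range of -0.58 to -0.29; under the 8 alternatives with all libraries it passed, at -0.51 to -0.43 with adjusted p of 0.018 to 0.049. The count of genes past the threshold was 4600 of those tested, 3451 to 4195 with 1 library left out and 4127 to 6270 otherwise, the highest with 14594 transcripts as rows. With libraries centred on their median, the median log2 fold change over all genes was 0.009 in place of 0.096, and the calls were 2186 higher and 2267 lower, 49.1% on the higher side, in place of 2878 and 1722, 62.6% on the higher side. Quantile normalization gave 2169 higher and 2292 lower. The directions of the 3 members held under both. The differences in ratio ran, with 1 library left out, from -1.89 to -1.48 for Bdh1 to Bdh2, from 1.31 to 1.57 for Bdh2 to Acat1 and from -0.32 to -0.06 for Bdh1 to Acat1. With another pseudocount or summed transcripts they were -1.76 to -1.69, 1.49 to 1.55 and -0.21, in the same order. Among genes beside the members, some that did not pass changed sign, and the cause was not tested. With centring Scp2 was at -0.01, Etfa at -0.06, Hibadh at -0.08 and Rdh5 at -0.05, and with quantile normalization Etfa was at -0.01, Hibadh at -0.04 and Rdh5 at -0.06. With 1 library left out Etfa ran from -0.04 to 0.10, Hibadh from -0.06 to 0.07, Rdh5 from -0.06 to 0.10, Gcgr from -0.11 to 0.00 and Lcn2 from -2.90 to 0.54, the last without fasted 1. No paired analysis was possible because the groups share no replicate number. Full depth is unknown, and 3 libraries per group limit the permutation tests to a smallest p of 0.1.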
